A study of Mus musculus with 4 samples.

Results

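The genes described here are the enzymes of glycolysis, of pyruvate use and of the citric acid cycle, 44 genes taken from the table by symbol. All 44 were among the 14519 entries of the deposited table. They were compared between Reg4+ deep crypt secretory (DCS) cells, mucus-making cells at the base of mouse colon crypts, and the Lgr5+ stem cells that lie beside them. Both were sorted from colonic epithelium of mice by fluorescent reporters, Reg4-dsRed and Lgr5-GFP, with 2 libraries per population, and the labels give no strain, age or treatment and no further allele. A reporter marks the cells in which it is read, so a sorted population can hold every cell type that carries it. RNA was measured by CEL-seq, which reads the 3′ ends of transcripts, and given as RPM, a gene's reads scaled to a common library total. The design text calls the 2 rounds of sorting biological replicates and does not say how many mice entered each.

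Glycolysis splits glucose to pyruvate in the cytosol, with hexokinase, phosphofructokinase and pyruvate kinase as its controlled steps. Pyruvate is then turned into lactate by lactate dehydrogenase, or enters the mitochondrion, where the pyruvate dehydrogenase complex makes acetyl-CoA from it for the citric acid cycle. Many of these steps are run by isoenzymes, products of separate genes whose use differs between tissues.

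Of the 44 genes, 40 had at least 5 RPM in at least 2 libraries and were tested with limma across all 10183 genes that passed this filter. The threshold for a call was 0.05 after Benjamini-Hochberg adjustment. In Reg4+ DCS cells 2 of these enzymes were higher, Hk2 and Aldoc, and 8 were higher in Lgr5+ cells: Gpi1, Pgam1, Pkm, Bpgm, Idh1, Idh3g, Sucla2 and Me2. The 2 called higher in Reg4+ DCS cells were 5% of the tested enzymes, beside 7.18% of all tested genes. The 8 called higher in Lgr5+ cells were 20%, beside 26.9% of all tested genes. In total 25% of the enzymes were called and 34.1% of all genes, so that the enzymes as a set did not stand out by their number of calls. The median log2 fold change (Reg4+ DCS minus Lgr5+, on log2(RPM + 1)) was −0.36 over the tested enzymes and −0.47 over all tested genes. Both libraries of Lgr5+ cells lay above both of Reg4+ DCS cells for 22 enzymes (55%, beside 56.2% of all genes), and the reverse held for 5 (12.5%, beside 16.1%).

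On the RPM scale a few abundant transcripts lower every other value. The 11 goblet genes checked here summed to 216906 and 145508 RPM in Reg4+ DCS cells, against 7282 and 2869 RPM in Lgr5+ cells. Their part in the shift of all genes by −0.47 was not tested. Scaling each library by its median ratio to the others moved the median of all genes to −0.02 and that of the enzymes to 0.11. After this scaling 5 enzymes were higher in Reg4+ DCS cells (12.5%, beside 14.8% of all genes) and 4 in Lgr5+ cells (10%, beside 13.6%), where 28.4% of all genes were called in either direction. With edgeR on recovered reads 5 were called toward Reg4+ DCS cells (beside 13.1% of all genes) and 5 toward Lgr5+ cells (beside 13.8%). After rescaling Hk2 and Aldoc were joined by Ogdh, Suclg2 and Pcx, while Pkm, Bpgm, Idh1 and Me2 stayed called in Lgr5+ cells and Gpi1, Pgam1, Idh3g and Sucla2 did not. By edgeR the same held, except that Idh3g stayed called. A fold change is therefore given on the RPM scale below, with the rescaled call where it differs.

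**Figure D1:**
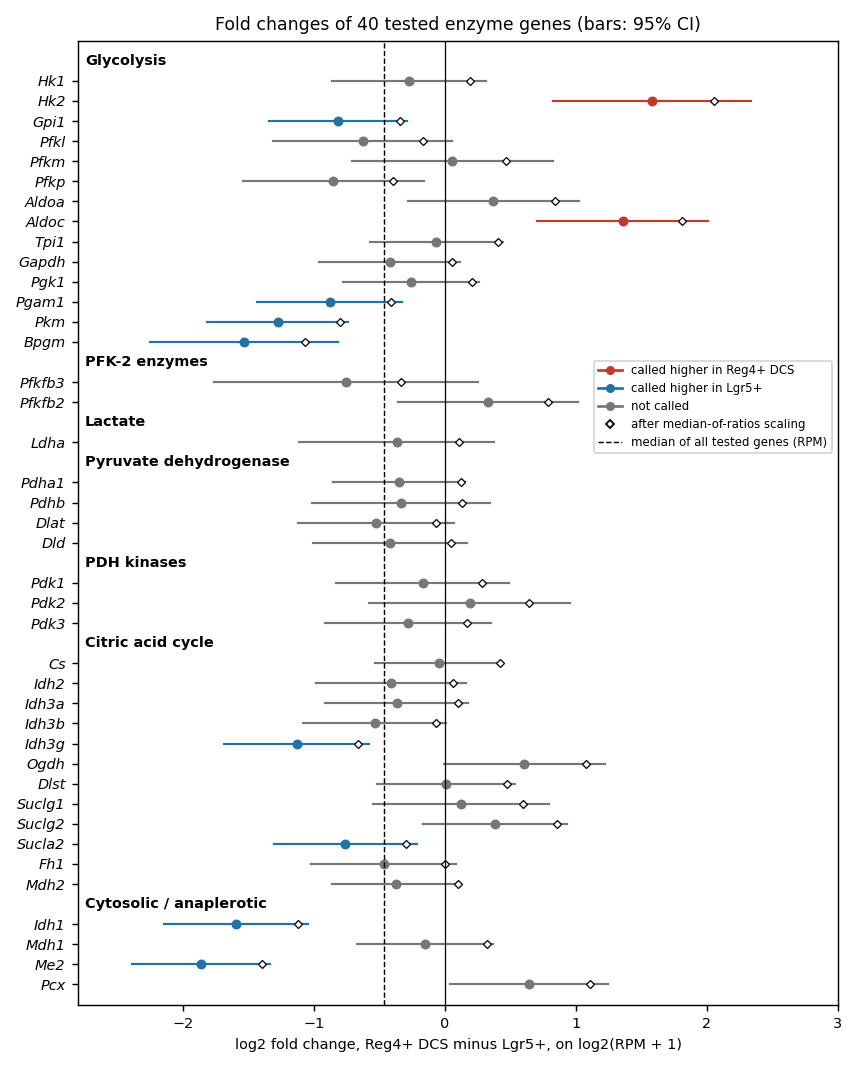
Log2 fold change (Reg4+ DCS minus Lgr5+, on log2(RPM + 1)) of the 40 tested enzymes by role, as points with 95% confidence intervals and 2 libraries per population, with the value after median-of-ratios scaling as open diamonds. Hk2 at 1.58 and Aldoc at 1.36 lie farthest to the right, Me2 at −1.86 and Idh1 at −1.60 farthest to the left, and the dashed line marks the median of all tested genes at −0.47.

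Steps between the RPM values showed that either Reg4+ DCS column averaged 2 parts, each on its own RPM scale. In replicate 1 these held 5523304 and 1890960 reads, and in replicate 2 they held 3004289 and 2443971 reads. The Lgr5+ columns came from 5205723 reads (replicate 1) and 7955340 reads (replicate 2). No source used here says what the parts were. The same 1641 genes were at 0 in both Reg4+ DCS columns, and 1638 of them were above 0 in both Lgr5+ libraries, so a 0 in a Reg4+ DCS column cannot be told apart from a gene that was left out of that column. Markers went with the labels, though Reg4 and Lgr5, whose reporters were used for sorting, are among them. Of the goblet and DCS genes, 10 of 11 were called toward Reg4+ DCS cells. In Lgr5+ cells 7 of 8 stem cell genes and 7 of 8 proliferation genes were higher. Lgr5 and Ascl2 passed the filter through the Lgr5+ libraries alone. Markers of tuft cells, chemosensory cells of the epithelium, summed to 3.72 and 4.34 RPM in Reg4+ DCS cells, against 1164 and 347 RPM in Lgr5+ cells, and 5 of 9 were at 0 in both Reg4+ DCS libraries. All 8 tested tuft genes were called higher in Lgr5+ cells, and all of them passed the filter through the Lgr5+ libraries alone. Markers of absorptive cells summed to 430 and 545 RPM in Reg4+ DCS cells, against 963 and 204 RPM in Lgr5+ cells. Guca2a made up most of the Reg4+ DCS sums, with 339 and 505 RPM there and 211 and 67.5 RPM in Lgr5+ cells. For 5 of the 7 absorptive markers tested, each Lgr5+ library exceeded each Reg4+ DCS library. Another marker overlapped, and Guca2a had the reverse order. Car1 and Slc26a3 were called toward Lgr5+ cells, Guca2a was called toward Reg4+ DCS cells, and 4 were not called. Enteroendocrine markers summed to 35.3 and 50.2 RPM in Reg4+ DCS cells, against 124 and 61.2 RPM in Lgr5+ cells. Of 6 tested, 1 was called, toward Lgr5+ cells. Leukocyte markers summed to 0.445 and 0.371 RPM in Reg4+ DCS cells, against 44.4 and 12.8 RPM in Lgr5+ cells. Ptprc made up most of these Lgr5+ sums and was at 0 in both Reg4+ DCS libraries. In sorted populations a change in the cells present and a change in RNA per cell cannot be told apart. The part of tuft, absorptive, enteroendocrine or dividing cells or of leukocytes in the enzyme levels was not tested.

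Hexokinase phosphorylates glucose and keeps it in the cell. Hk2, the inducible isoenzyme (mm10 chromosome 6, 82725025 to 82774454, minus strand), had 445 and 335 RPM in Reg4+ DCS replicates 1 and 2, against 177 and 92.5 RPM in Lgr5+ replicates 1 and 2. Both Reg4+ DCS libraries lay above both Lgr5+ libraries. The mean was 2.89-fold higher in Reg4+ DCS cells, ranging from 2.20 to 4.21 without 1 library (log2 fold change 1.58, SE 0.33, limma adjusted p = 0.00883). The call was lost without Reg4+ DCS replicate 1 (limma adjusted p = 0.0816). Hk1, the housekeeping isoenzyme, had 67.1 and 52.9 RPM in Reg4+ DCS cells and 82.2 and 63.7 RPM in Lgr5+ cells. These groups overlapped, and Hk1 was not called (log2 fold change −0.28, 95% confidence interval −0.86 to 0.31, limma adjusted p = 0.416).

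The ratio of both hexokinases does not change when a whole column is rescaled. In a Reg4+ DCS column it does depend on how the parts of that column are weighted. The RPM of Hk2 was 6.64 and 6.32 times that of Hk1 in Reg4+ DCS cells, against 2.15 and 1.45 times in Lgr5+ cells. On the log2 scale of (RPM + 1) the ratio was higher by 1.86 in Reg4+ DCS cells, with a pooled SD of 0.29 between replicates. An exact two-sided permutation test over 4 libraries gave p = 0.333, which is the smallest this design allows.

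The Hk2 level of Reg4+ DCS replicate 1 was a mean of unlike values. Its parts held 734 RPM and 157 RPM, 4.69-fold apart, whereas those of replicate 2 held 333 and 336 RPM. The 157 RPM of the second part lay below the 177 RPM of Lgr5+ replicate 1. Of 1140 genes with at least 100 RPM in Reg4+ DCS replicate 1 and reads in every part, 3 differed between its parts 4.69-fold or more, Hk2 among them. With the second part of each column alone Hk2 was not called (log2 fold change 0.84, limma adjusted p = 0.193), and with the first part alone its log2 fold change was 1.94 (limma adjusted p = 0.0127). The Hk2 to Hk1 ratio was 9.93 and 2.60 in the parts of replicate 1, and the lower of these still lay above both Lgr5+ libraries.

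**Figure D2:**
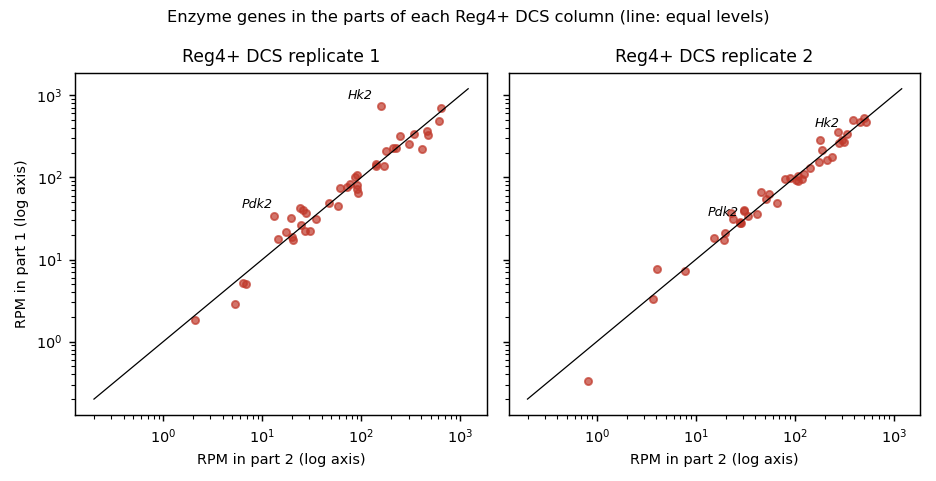
RPM of the enzymes in part 1 against part 2 of each Reg4+ DCS column, both axes logarithmic, 1 point per gene, with the line of equal levels. In replicate 1 Hk2 lies far above the line at 734 against 157 RPM and Pdk2 next at 34.2 against 13.2 RPM, while in replicate 2 both lie on it.

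After hexokinase, glucose phosphate isomerase and the phosphofructokinases act. Gpi1, which turns glucose phosphate into fructose phosphate (chromosome 7, 34201330 to 34230336, minus strand), had 93.4 and 116 RPM in Reg4+ DCS cells and 173 and 197 RPM in Lgr5+ cells. The groups were apart, and the mean was 1.76-fold higher in Lgr5+ cells (log2 fold change −0.82, SE 0.23, limma adjusted p = 0.0284). The call was lost without Reg4+ DCS replicate 1 (0.152), without Lgr5+ replicate 2 (0.111) and after median-of-ratios scaling (limma adjusted p = 0.248). Within the last 500 bases of Gpi1 transcripts, 27.4% of all 50-base stretches also occur in transcripts of other genes, and no source used here says how such reads were counted.

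Of the phosphofructokinase subunits 0 of 3 were called, by limma or by edgeR on recovered reads, and 1, Pfkp, had an unadjusted limma p under 0.05. Pfkl, the liver-type subunit, had 25.9 and 29.6 RPM in Reg4+ DCS cells and 54.7 and 34.2 RPM in Lgr5+ cells, and Pfkp, the platelet-type subunit, had 19.0 and 18.3 RPM in Reg4+ DCS cells and 43.0 and 27.5 RPM in Lgr5+ cells. For both, the Lgr5+ libraries lay above the Reg4+ DCS libraries (limma adjusted p = 0.133 and 0.0586). Pfkp was called without Lgr5+ replicate 2 (limma adjusted p = 0.0279) and with the first part of each Reg4+ DCS column alone (0.0450). Pfkm, the muscle-type subunit, had 5.57 to 7.55 RPM over all 4 libraries, with overlapping groups.

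Aldolase splits the phosphorylated fructose into its triose phosphates. Aldoc, the isoenzyme best known from brain (chromosome 11, 78322968 to 78327781, plus strand), had 33.1 and 39.0 RPM in Reg4+ DCS cells and 15.4 and 11.7 RPM in Lgr5+ cells. The mean was 2.67-fold higher in Reg4+ DCS cells (with 1 library left out 2.35 to 3.09, log2 fold change 1.36, SE 0.28, limma adjusted p = 0.0092). It was called without any 1 library (limma adjusted p from 0.00353 to 0.0463), in either part of the columns and after rescaling. Its parts differed little, at 31.3 and 34.9 RPM in replicate 1 and 36.3 and 41.7 RPM in replicate 2. Aldoa, the ubiquitous isoenzyme, had 661 and 468 RPM in Reg4+ DCS cells and 522 and 355 RPM in Lgr5+ cells, overlapped between groups and was not called (limma adjusted p = 0.331). The log2 ratio of Aldoc to Aldoa was higher by 0.99 in Reg4+ DCS cells (exact permutation p = 0.333, the smallest possible).

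At the steps from triose phosphate to phosphoglycerate no gene was called on the RPM scale. Tpi1, triose phosphate isomerase, had 546 and 518 RPM in Reg4+ DCS cells and 528 and 588 RPM in Lgr5+ cells, and its 95% confidence interval on the log2 scale ran from −0.57 to 0.44. Gapdh, the dehydrogenase often used as a reference gene, had 340 and 440 RPM in Reg4+ DCS cells and 510 and 528 RPM in Lgr5+ cells. The groups of Gapdh did not overlap, but it was not called (log2 fold change −0.42, limma adjusted p = 0.188), and its sign turned to 0.05 after rescaling. Pgk1, which makes the pathway's first ATP, had 154 and 136 RPM in Reg4+ DCS cells and 158 and 191 RPM in Lgr5+ cells (limma adjusted p = 0.385). Of the 50-base stretches at the Gapdh 3′ end, 63.2% also occur in transcripts of other genes, against 10.3% for Tpi1 and 7.32% for Pgk1.

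Pgam1 and Bpgm are related mutases. Pgam1, the phosphoglycerate mutase of glycolysis (chromosome 19, 41911923 to 41918660, plus strand), had 78.9 and 94.3 RPM in Reg4+ DCS cells and 140 and 182 RPM in Lgr5+ cells. It was 1.86-fold higher in Lgr5+ cells (log2 fold change −0.88, SE 0.24, limma adjusted p = 0.0257), a call that was lost after rescaling (0.208) and without any 1 library but Lgr5+ replicate 1 (limma adjusted p from 0.0537 to 0.137). Bpgm, which makes bisphosphoglycerate and is best known from red blood cells (chromosome 6, 34476207 to 34505613, plus strand), had 19.5 and 20.3 RPM in Reg4+ DCS cells and 78.2 and 45.0 RPM in Lgr5+ cells. It was 3.10-fold higher in Lgr5+ cells (with 1 library left out 2.26 to 3.93, log2 fold change −1.53, SE 0.31, limma adjusted p = 0.00828). The call was lost without Reg4+ DCS replicate 1 (limma adjusted p = 0.0572).

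Enolase could not be followed through Eno1. Eno1, the common isoenzyme, had a listed value of 0 in either Reg4+ DCS library, against 0.960 and 0.629 RPM in Lgr5+ cells. At its 3′ end 68.1% of 50-base stretches also occur in transcripts of other genes, the highest share among the enzymes. Eno3, the muscle isoenzyme and no member of the set, had 42.6 and 67.5 RPM in Reg4+ DCS cells and 34.8 and 36.2 RPM in Lgr5+ cells. It was not called on the RPM scale (limma adjusted p = 0.144) and was called after rescaling (0.0118).

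Pyruvate kinase makes pyruvate and ATP in the last step of glycolysis. Pkm (chromosome 9, 59656368 to 59679375, plus strand) had 219 and 232 RPM in Reg4+ DCS cells and 627 and 480 RPM in Lgr5+ cells. The mean was 2.45-fold higher in Lgr5+ cells (with 1 library left out 2.13 to 2.78, log2 fold change −1.28, SE 0.23, limma adjusted p = 0.00527). The call held after rescaling (limma adjusted p = 0.0328) and became 0.0535 without Reg4+ DCS replicate 1. Reads from 3′ ends do not tell the splice forms of Pkm apart, and 19.3% of the 50-base stretches at its 3′ end occur in transcripts of other genes.

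**Figure D3:**
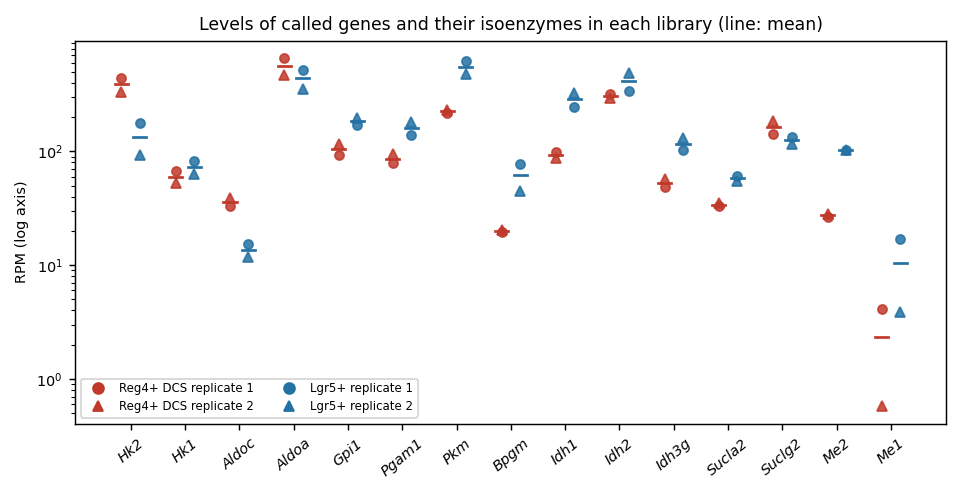
RPM (log axis) in each library of the 10 called enzymes and of isoenzymes of some of them, Reg4+ DCS at the left and Lgr5+ at the right of each gene, circles for replicate 1, triangles for replicate 2 and lines for means. Hk2 and Aldoc lie higher in both Reg4+ DCS libraries, Pkm, Bpgm, Idh1 and Me2 lie higher in both Lgr5+ libraries, and Hk1 and Aldoa overlap.

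Promoters of some genes that differed are shown because many glycolytic genes are textbook targets of hypoxia-inducible factors, whose core motif is ACGTG or GCGTG. Each window covers 300 bases around a start site, most of them upstream, from RefSeq (GRCm38.p6, the assembly of mm10), with core motifs on either strand in capitals, so that CACGTG counts as a match on each strand. The Hk2 window is chr6:82774405-82774704 on the minus strand and the Bpgm window chr6:34476106-34476405 on the plus strand. Both Pkm windows are chr9:59656326-59656625 and chr9:59656977-59657276 on the plus strand. For Aldoc and for Ldha, which was not called and held the most matches, the first listed of 2 windows is shown, chr11:78322823-78323122 and chr7:46845554-46845853, both on the plus strand.
Hk2: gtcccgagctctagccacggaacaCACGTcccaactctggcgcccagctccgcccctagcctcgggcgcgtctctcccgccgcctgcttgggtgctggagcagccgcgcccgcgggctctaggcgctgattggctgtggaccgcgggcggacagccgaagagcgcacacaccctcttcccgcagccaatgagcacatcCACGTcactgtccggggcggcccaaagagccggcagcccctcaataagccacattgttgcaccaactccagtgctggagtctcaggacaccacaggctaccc
Aldoc: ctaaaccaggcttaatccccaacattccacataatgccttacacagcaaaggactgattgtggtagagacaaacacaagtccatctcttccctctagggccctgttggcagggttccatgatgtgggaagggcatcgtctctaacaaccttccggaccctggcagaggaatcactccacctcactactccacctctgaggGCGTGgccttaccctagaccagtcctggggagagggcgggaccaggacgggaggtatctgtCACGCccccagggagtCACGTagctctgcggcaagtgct
Pkm, first window: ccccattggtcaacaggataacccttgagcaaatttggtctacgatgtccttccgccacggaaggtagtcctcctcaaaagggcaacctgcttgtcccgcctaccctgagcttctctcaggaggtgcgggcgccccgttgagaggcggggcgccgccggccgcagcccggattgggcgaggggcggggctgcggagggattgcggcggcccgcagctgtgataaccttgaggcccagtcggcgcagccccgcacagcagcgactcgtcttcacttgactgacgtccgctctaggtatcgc
Pkm, second window: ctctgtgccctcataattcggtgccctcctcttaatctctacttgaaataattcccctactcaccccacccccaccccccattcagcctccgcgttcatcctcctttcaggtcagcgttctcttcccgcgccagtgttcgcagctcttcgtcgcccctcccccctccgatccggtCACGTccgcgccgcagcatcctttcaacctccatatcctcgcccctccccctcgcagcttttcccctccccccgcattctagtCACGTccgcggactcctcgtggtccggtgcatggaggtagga
Bpgm: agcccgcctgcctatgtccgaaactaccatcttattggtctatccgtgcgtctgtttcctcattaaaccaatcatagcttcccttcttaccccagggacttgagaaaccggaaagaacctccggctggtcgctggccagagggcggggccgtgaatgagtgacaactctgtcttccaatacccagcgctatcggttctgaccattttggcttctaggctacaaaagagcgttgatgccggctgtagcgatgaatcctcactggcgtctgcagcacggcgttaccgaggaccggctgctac
Ldha: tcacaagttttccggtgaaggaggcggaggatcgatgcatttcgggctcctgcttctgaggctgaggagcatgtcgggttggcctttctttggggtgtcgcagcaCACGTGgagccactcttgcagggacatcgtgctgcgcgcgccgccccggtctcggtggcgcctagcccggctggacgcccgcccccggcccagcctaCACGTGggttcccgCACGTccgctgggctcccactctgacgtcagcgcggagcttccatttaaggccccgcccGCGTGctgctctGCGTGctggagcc

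The Hk2 window held 2 matches, the Aldoc window 3, the Pkm windows 0 and 2, the Bpgm window 0 and the Ldha window 7. Of the enzymes called higher in Lgr5+ cells whose windows are not printed, Pgam1 held 3 matches and Idh3g 2. Each Idh1 window held 1, and those of Gpi1 and Sucla2 held 0. Among enzymes with a window, 32 of 42 held a match in at least 1 window (76.2%), beside 46.7% of all 27025 genes with a window. Among tested enzymes 28 of 38 did (73.7%), beside 69.6% of 7685 tested genes. Of the enzymes called higher in Reg4+ DCS cells 2 of 2 held a match, and of those called higher in Lgr5+ cells 4 of 7 with a window did. A match is a description of the letters and no evidence of binding. Hif1a, the oxygen-regulated subunit of these factors, had 21.1 and 28.5 RPM in Reg4+ DCS cells and 30.5 and 34.6 RPM in Lgr5+ cells and was not called (limma adjusted p = 0.289).

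The Pfkfb enzymes are bifunctional kinases and phosphatases that make and break down an allosteric activator of phosphofructokinase. Pfkfb2 had 25.5 and 33.8 RPM in Reg4+ DCS cells and 27.5 and 19.5 RPM in Lgr5+ cells and was not called (limma adjusted p = 0.409). Pfkfb3, the form known for its high kinase activity, had 5.97 and 5.87 RPM in Reg4+ DCS cells and 17.1 and 6.54 RPM in Lgr5+ cells. It was not called (limma adjusted p = 0.207), and without Lgr5+ replicate 2 it was (0.0453). Pfkfb4, a relative outside the set, had 11.4 and 13.2 RPM in Reg4+ DCS cells and 3.46 and 4.02 RPM in Lgr5+ cells, 3.29-fold higher in Reg4+ DCS cells (log2 fold change 1.49, limma adjusted p = 0.00991). It passed the filter through the Reg4+ DCS libraries alone, and with either of them left out it was not tested. The ratio of Pfkfb3 to Pfkfb2 was 0.235 and 0.174 in Reg4+ DCS libraries and 0.622 and 0.335 in Lgr5+ libraries, with no overlap (exact permutation p = 0.333).

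Lactate dehydrogenase interconverts pyruvate and lactate. Ldha, the subunit that favours lactate formation, had 414 and 294 RPM in Reg4+ DCS cells and 607 and 335 RPM in Lgr5+ cells. The groups overlapped, and it was not called (log2 fold change −0.37, 95% confidence interval −1.12 to 0.38, limma adjusted p = 0.395). Ldhb, the heart-type subunit, had a listed value of 0 in either Reg4+ DCS library, against 4.99 and 2.39 RPM in Lgr5+ cells. It fell below the filter, and no fold is given. At the 3′ ends of Ldha and Ldhb, 12.8% and 29.2% of 50-base stretches also occur in transcripts of other genes. Of the lactate carriers, Slc16a1 had 18.3 and 20.6 RPM in Reg4+ DCS cells and 43.0 and 36.6 RPM in Lgr5+ cells and was called higher in Lgr5+ cells (2.05-fold, limma adjusted p = 0.0224), though not after rescaling (0.117). Slc16a3 was below the filter, at 0.0905 and 0.333 RPM in Reg4+ DCS cells, where its reads came from 1 part of each column, and 14.8 and 3.02 RPM in Lgr5+ cells.

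Of the pyruvate dehydrogenase complex, which makes acetyl-CoA, no gene was called. Of its 4 subunits in the set 0 were called by limma, with or without rescaling, or by edgeR on recovered reads. An unadjusted limma p under 0.05 was found for 0 of these 4. Pdha1, the catalytic subunit, had 140 and 164 RPM in Reg4+ DCS cells and 189 and 198 RPM in Lgr5+ cells, and Pdhb, its partner, 33.3 and 55.7 RPM in Reg4+ DCS cells and 57.8 and 51.5 RPM in Lgr5+ cells. Dlat, the acetyl transfer subunit, had 24.7 and 28.1 RPM in Reg4+ DCS cells and 41.9 and 35.3 RPM in Lgr5+ cells. Dld, the subunit shared with the oxoglutarate complex, had 31.9 and 35.5 RPM in Reg4+ DCS cells and 50.9 and 40.2 RPM in Lgr5+ cells. The log2 fold changes of the 4 lay between −0.53 and −0.34, around the median of all genes.

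Of the kinases that switch the complex off, 0 of 3 tested were called by limma or edgeR, and 0 had an unadjusted limma p under 0.05. Pdk1 had 19.4 and 27.3 RPM in Reg4+ DCS cells and 24.8 and 27.4 RPM in Lgr5+ cells, and Pdk3 had 16.0 and 16.7 RPM in Reg4+ DCS cells and 19.0 and 21.2 RPM in Lgr5+ cells. Pdk2 had 23.7 and 28.1 RPM in Reg4+ DCS cells and 30.2 and 16.7 RPM in Lgr5+ cells. Their 95% confidence intervals on the log2 scale reached from −0.83 to 0.49, −0.91 to 0.35 and −0.58 to 0.96 for Pdk1, Pdk3 and Pdk2. Pdk4, the form induced by fasting, was below the filter at 1.96 and 3.51 RPM in Reg4+ DCS cells and 7.49 and 2.64 RPM in Lgr5+ cells. The parts of Reg4+ DCS replicate 1 differed for Pdk2, at 34.2 and 13.2 RPM.

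In the citric acid cycle, 0 of 12 enzymes were called higher in Reg4+ DCS cells and 2 were called higher in Lgr5+ cells, beside 7.18% and 26.9% of all tested genes. After rescaling the counts were 2 and 0, beside 14.8% and 13.6%. By edgeR they were 2 and 1, and on the RPM scale 0 enzymes higher in Reg4+ DCS cells had an unadjusted limma p under 0.05. Cs, citrate synthase, which admits acetyl-CoA to the cycle, had 226 and 208 RPM in Reg4+ DCS cells and 230 and 218 RPM in Lgr5+ cells. These groups overlapped, and the log2 fold change of −0.05 had a 95% confidence interval of −0.54 to 0.44. Mdh2, the malate dehydrogenase of mitochondria, had 283 and 272 RPM in Reg4+ DCS cells and 356 and 363 RPM in Lgr5+ cells, and Fh1, fumarase, had 85.6 and 108 RPM in Reg4+ DCS cells and 120 and 148 RPM in Lgr5+ cells, without a call (limma adjusted p = 0.197 and 0.162).

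Isocitrate dehydrogenases make oxoglutarate, with NAD in the Idh3 complex of the cycle and with NADP in Idh1 and Idh2. Idh3g, a regulatory subunit of the complex (chromosome X, 73778963 to 73786897, minus strand), had 48.3 and 57.0 RPM in Reg4+ DCS cells and 104 and 130 RPM in Lgr5+ cells. It was 2.22-fold higher in Lgr5+ cells (log2 fold change −1.13, SE 0.24, limma adjusted p = 0.00991). The call became 0.056 after rescaling and 0.0675 without Reg4+ DCS replicate 1. The catalytic subunit Idh3a had 73.9 and 97.7 RPM in Reg4+ DCS cells and 108 and 112 RPM in Lgr5+ cells, and the subunit Idh3b had 79.6 and 106 RPM in Reg4+ DCS cells and 138 and 130 RPM in Lgr5+ cells. Both lay below either Lgr5+ library in each Reg4+ DCS library, but neither was called (limma adjusted p = 0.25 and 0.112), and a difference between the subunits' changes was not tested.

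Idh1, the cytosolic enzyme and a source of NADPH (chromosome 1, 65158616 to 65186500, minus strand), had 99.9 and 87.4 RPM in Reg4+ DCS cells and 246 and 329 RPM in Lgr5+ cells. It was 3.07-fold higher in Lgr5+ cells (with 1 library left out 2.63 to 3.51, log2 fold change −1.60, SE 0.24, limma adjusted p = 0.00232), and it was called after rescaling, by edgeR and without any 1 library (limma adjusted p at most 0.0232). Idh2, its mitochondrial counterpart, had 317 and 294 RPM in Reg4+ DCS cells and 340 and 485 RPM in Lgr5+ cells and was not called (limma adjusted p = 0.223). The RPM of Idh1 was 0.315 and 0.298 times that of Idh2 in Reg4+ DCS libraries and 0.723 and 0.678 times in Lgr5+ libraries. The difference of the log2 ratio was −1.18 with a pooled SD of 0.06 between replicates (exact permutation p = 0.333). Within Reg4+ DCS replicate 1 the parts gave 0.488 and 0.222, both below the Lgr5+ libraries.

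Oxoglutarate dehydrogenase and succinyl-CoA ligase follow in the cycle. Ogdh, the first subunit of the oxoglutarate complex, had 402 and 312 RPM in Reg4+ DCS cells and 282 and 191 RPM in Lgr5+ cells, above them in both libraries. It was not called on the RPM scale (1.51-fold, log2 fold change 0.61, limma adjusted p = 0.11), and was called after rescaling (0.025), by edgeR (0.038) and without Lgr5+ replicate 1 (limma adjusted p = 0.0406). Dlst, the second subunit, had 81.2 and 98.2 RPM in Reg4+ DCS cells and 91.4 and 86.1 RPM in Lgr5+ cells, with overlap and a log2 fold change of 0.01.

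Succinyl-CoA ligase pairs the shared subunit Suclg1 with Sucla2, which makes ATP, or with Suclg2, which makes GTP. Sucla2 (chromosome 14, 73525319 to 73596142, plus strand) had 32.9 and 35.0 RPM in Reg4+ DCS cells and 60.9 and 55.4 RPM in Lgr5+ cells, 1.71-fold higher in Lgr5+ cells (log2 fold change −0.76, SE 0.24, limma adjusted p = 0.0403). That call was lost without any 1 library (limma adjusted p from 0.0792 to 0.169) and after rescaling (0.339). Suclg2 had 143 and 186 RPM in Reg4+ DCS cells and 134 and 116 RPM in Lgr5+ cells, above them in both libraries. It was called after rescaling (limma adjusted p = 0.0163 against 0.235 on the RPM scale) and by edgeR (0.0267). At the Suclg2 3′ end 15.7% of 50-base stretches also occur in transcripts of another gene. The ratio of Suclg2 to Sucla2 was 4.34 and 5.32 in Reg4+ DCS libraries and 2.21 and 2.09 in Lgr5+ libraries, and its log2 value was higher by 1.14 in Reg4+ DCS cells with a pooled SD of 0.15 (exact permutation p = 0.333). Suclg1 had 284 and 493 RPM in Reg4+ DCS cells and 357 and 331 RPM in Lgr5+ cells, and overlapped.

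**Figure D4:**
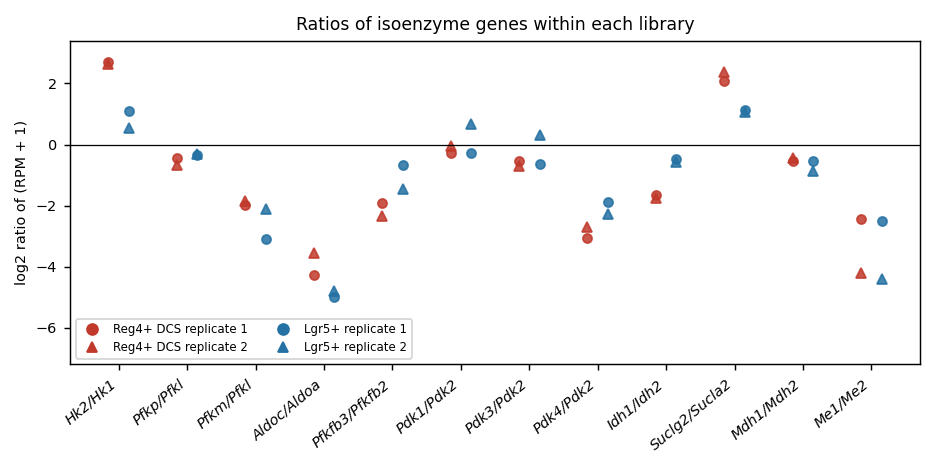
Log2 ratio of (RPM + 1) for 12 pairs of isoenzyme genes within each library, Reg4+ DCS at the left and Lgr5+ at the right of each pair, circles for replicate 1 and triangles for replicate 2. Hk2/Hk1 and Suclg2/Sucla2 lie higher and Idh1/Idh2 lower in both Reg4+ DCS libraries, and Pdk1/Pdk2, Pdk3/Pdk2, Mdh1/Mdh2 and Me1/Me2 overlap.

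Over the 12 pairs with a ratio, 4 were higher in both Reg4+ DCS libraries, 4 were higher in both Lgr5+ libraries and 4 overlapped. Some pairs share a gene, Pfkl or Pdk2, and the share of such orders among other gene pairs was not counted, so nothing is read from these counts. The pairs higher in Reg4+ DCS libraries were Hk2/Hk1, Pfkm/Pfkl, Aldoc/Aldoa and Suclg2/Sucla2. For Pfkm/Pfkl the ratio was 0.224 and 0.255 in Reg4+ DCS libraries and 0.102 and 0.210 in Lgr5+ libraries. In part 1 of Reg4+ DCS replicate 1 it was 0.163, below Lgr5+ replicate 2. No pair could reach a p below 0.333 in a design of this size.

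Malic enzymes turn malate into pyruvate, and pyruvate carboxylase refills the cycle with oxaloacetate. Me2, the mitochondrial NAD-linked malic enzyme, had 26.6 and 28.2 RPM in Reg4+ DCS cells and 102 and 102 RPM in Lgr5+ cells. It was 3.73-fold higher in Lgr5+ cells (with 1 library left out 3.62 to 3.85, log2 fold change −1.86, SE 0.23, limma adjusted p = 0.00102), the lowest adjusted p among the enzymes. It was called after rescaling (0.00219), in either part of the columns and without any 1 library (limma adjusted p at most 0.0141). Me1, the cytosolic enzyme, was below the filter at 4.09 and 0.576 RPM in Reg4+ DCS cells and 17.1 and 3.90 RPM in Lgr5+ cells.

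Pcx, pyruvate carboxylase, had 51.5 and 59.0 RPM in Reg4+ DCS cells and 40.7 and 29.9 RPM in Lgr5+ cells, above them in both libraries. It was not called on the RPM scale (1.56-fold, log2 fold change 0.64, limma adjusted p = 0.0887) and was called after rescaling (0.00904) and by edgeR (0.0158). Mdh1, the cytosolic malate dehydrogenase of the malate-aspartate shuttle, had 193 and 202 RPM in Reg4+ DCS cells and 245 and 197 RPM in Lgr5+ cells, and overlapped.

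Of 71 other genes of these and adjoining pathways, 63 were in the table and 53 were tested. Of these, 3 were higher in Reg4+ DCS cells, and 17 were higher in Lgr5+ cells, among them Fbp1, which has a listed value of 0 in either Reg4+ DCS library and gets no fold. Over all tested genes the shares called were 7.18% and 26.9%. After rescaling the counts were 8 and 6, beside 14.8% and 13.6% of all genes. The 3 higher in Reg4+ DCS cells were Pfkfb4, given above, Gpt2 and Pck1. Gpt2, the mitochondrial alanine transaminase that links pyruvate to oxoglutarate, had 25.1 and 33.3 RPM in Reg4+ DCS cells and 4.80 and 3.14 RPM in Lgr5+ cells (7.35-fold, 6.08 to 9.29 without 1 library, limma adjusted p = 0.00115). Gpt2 too passed the filter through the Reg4+ DCS libraries alone and was not tested with either of them left out. Pck1, the cytosolic carboxykinase of gluconeogenesis, had 119 and 116 RPM in Reg4+ DCS cells and 32.7 and 16.6 RPM in Lgr5+ cells (4.76-fold, 3.59 to 7.07 without 1 library, limma adjusted p = 0.00188). Its mitochondrial counterpart Pck2 went the other way, at 39.4 and 46.7 RPM in Reg4+ DCS cells and 143 and 182 RPM in Lgr5+ cells, 3.77-fold higher in Lgr5+ cells (limma adjusted p = 0.00119). Both were called after rescaling. Galm was 2.28-fold, Got2 2.09-fold, Fbp2 1.99-fold, G6pc3 1.90-fold and Egln3 2.27-fold higher in Lgr5+ cells on the RPM scale, and none of these was called after rescaling (limma adjusted p from 0.0847 to 0.132).

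The remaining calls toward Lgr5+ cells included genes of sugar sensing and uptake. Mlxipl, a glucose-sensing transcription factor, had 7.59 and 18.0 RPM in Reg4+ DCS cells and 161 and 178 RPM in Lgr5+ cells, 13.3-fold higher in Lgr5+ cells (with 1 library left out 9.42 to 22.4, limma adjusted p = 0.00041). Its relative Mlxip was 2.31-fold higher in Lgr5+ cells (limma adjusted p = 0.00738), and both were called after rescaling. Slc5a1, the sodium-coupled glucose transporter, had 45.3 and 45.6 RPM in Reg4+ DCS cells and 135 and 159 RPM in Lgr5+ cells (3.23-fold higher in Lgr5+ cells, limma adjusted p = 0.00152). Slc2a1, the basal glucose transporter, had 145 and 142 RPM in Reg4+ DCS cells and 120 and 79.6 RPM in Lgr5+ cells, without a call on the RPM scale (limma adjusted p = 0.132) and with one after rescaling (0.0182).

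The pentose phosphate pathway, which branches from glycolysis and makes NADPH and ribose, lay below both Lgr5+ libraries in both Reg4+ DCS libraries for 7 of 7 genes, an order that 56.2% of all tested genes showed. Of the 7, 5 were called on the RPM scale, beside 26.9% of all tested genes. Tkt, transketolase, had 782 and 867 RPM in Reg4+ DCS cells and 1490 and 1676 RPM in Lgr5+ cells (1.92-fold higher in Lgr5+ cells, limma adjusted p = 0.0191). G6pdx, the entry enzyme, had 31.1 and 24.5 RPM in Reg4+ DCS cells and 59.4 and 61.3 RPM in Lgr5+ cells (2.17-fold higher in Lgr5+ cells, limma adjusted p = 0.0131). Rpia was 2.10-fold, Taldo1 1.81-fold and Pgd 1.63-fold higher in Lgr5+ cells. After rescaling 0 of the 7 were called by limma, with 2 at an unadjusted p under 0.05, and edgeR on recovered reads called 1, G6pdx (adjusted p = 0.0368), with no value for Tkt. The proliferation markers moved with these genes, with 7 of 8 called higher in Lgr5+ cells and sums of 396 and 461 RPM in Reg4+ DCS cells, against 1653 and 1656 RPM in Lgr5+ cells, and their part in the result was not tested.

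**Figure D5:**
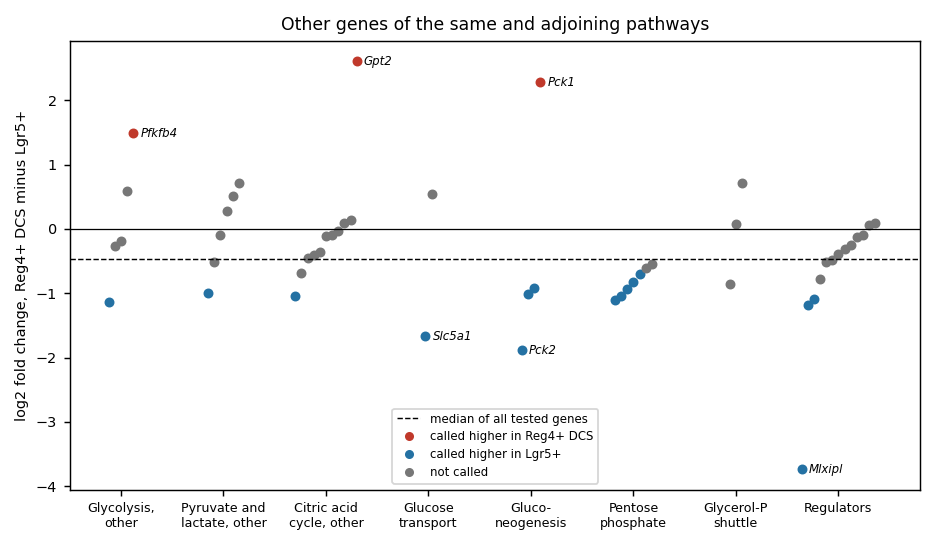
Log2 fold change (Reg4+ DCS minus Lgr5+, on log2(RPM + 1)) of most other tested genes by pathway, 1 point per gene, coloured by the limma call and without Fbp1. Gpt2 at 2.61, Pck1 at 2.28 and Pfkfb4 at 1.49 lie highest, Mlxipl at −3.74 lies lowest of those shown, and all 7 pentose phosphate genes lie below the dashed median of all genes at −0.47.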

How the data were processed

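RNA of 2 Reg4+ DCS and 2 Lgr5+ libraries was measured by CEL-seq with 50-base paired-end reads, per the labels' protocols. BWA (version 0.6.2-r126) and the build mm10 are listed in the submitters' processing notes. The deposited table gives RPM per gene, while no source used here gives the authors' counting rules or use of strand. Values were whole multiples of 1 read within 0.01 reads in 100% of Lgr5+ entries, and 99.876% and 98.6018% of entries in Reg4+ DCS columns 1 and 2 could be decoded as means of 2 parts, which gave the read numbers.

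The fit was limma 3.58.1 in R 4.3.3, with a trend, on log2(RPM + 1) of genes with at least 5 RPM in at least 2 libraries, two-sided, with Benjamini-Hochberg adjustment over all tested genes. Fold changes on this scale understate those of low genes. A fold is the ratio of mean RPM. Alternatives were median-of-ratios scaling, other pseudocounts and filters, no trend, a replicate block and each library left out. Use of single parts and edgeR 4.0.16 on recovered reads were added after seeing the data, and edgeR called 2686 of 9980 genes. The edgeR fit left out genes whose reads could not be decoded. It summed the reads of both parts of a column, so the part with more reads weighed more. For Hk2 in Reg4+ DCS replicate 1 these were 4052 reads in part 1 and 296 in part 2. Shared stretches and coordinates came from GENCODE M21. The limma fit was also run on simulated counts. These had no built-in shift of abundant transcripts and no averaged parts, so that run does not bear on either. The enzymes and the other gene lists were chosen with earlier results of these data known. Values are given for every called enzyme and isoenzyme, and for further enzymes by role. Read numbers bear on counting error only, and the p-values rest on the spread between 2 libraries per population. Some genes of the lists are not reported here by name, though the counts include them.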

Additional observations from a re-analysis of the deposited data

How the results depend on the processing

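The counts of calls depended on scaling and on single libraries. The enzymes had 2 calls toward Reg4+ DCS cells and 8 toward Lgr5+ cells, against 5 and 4 after median-of-ratios scaling, 5 and 5 by edgeR on recovered reads, and 1 and 6 with part 2 of each column, where Hk2, Gpi1 and Pgam1 were lost. Without a trend in limma they were 2 and 6, with Gpi1 (adjusted p = 0.0522) and Sucla2 (0.0548) lost. With part 1 alone they were 2 and 8, with Sucla2 lost (0.103) and Pfkp gained. Leaving out 1 library gave 1 to 3 toward Reg4+ DCS cells and 2 to 7 toward Lgr5+ cells. All tested genes together gave 731 calls toward Reg4+ DCS cells and 2744 toward Lgr5+ cells, against 1505 and 1389 after rescaling and 1307 and 1379 by edgeR. With part 2 alone 466 were called toward Reg4+ DCS cells and 1880 toward Lgr5+ cells. The counts over all tested genes were 677 and 2596 with part 1 alone, and 671 and 2645 without a trend. Without 1 library, 349 to 706 were called toward Reg4+ DCS cells and 1060 to 2288 toward Lgr5+ cells.

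Signs turned for enzymes that were not called. After median-of-ratios scaling the log2 fold change was 0.19 for Hk1, 0.41 for Tpi1, 0.051 for Gapdh, 0.21 for Pgk1, 0.10 for Ldha, 0.12 for Pdha1, 0.13 for Pdhb, 0.046 for Dld, 0.28 for Pdk1, 0.17 for Pdk3, 0.42 for Cs, 0.062 for Idh2, 0.10 for Idh3a, 0.0022 for Fh1, 0.32 for Mdh1 and 0.10 for Mdh2. By edgeR it was 0.22 for Hk1, 0.33 for Tpi1, 0.021 for Gapdh, 0.13 for Pgk1, 0.0022 for Ldha, 0.072 for Pdha1, 0.20 for Pdhb, 0.062 for Dld, 0.30 for Pdk1, 0.18 for Pdk3, 0.39 for Cs, 0.070 for Idh3a, 0.31 for Mdh1 and 0.030 for Mdh2. With part 1 alone it was −0.022 for Pfkm and −0.15 for Dlst, and with part 2 alone −0.20 for Pdk2 and 0.039 for Cs. Without 1 library it ran from −0.11 to 0.22 for Pfkm, −0.14 to 0.011 for Tpi1, −0.80 to 0.060 for Ldha, −0.70 to 0.028 for Pdhb, −0.41 to 0.067 for Pdk1, −0.22 to 0.60 for Pdk2, −0.11 to 0.0096 for Cs, −0.13 to 0.14 for Dlst, −0.27 to 0.52 for Suclg1 and −0.31 to 0.0059 for Mdh1.

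The difference of the log2 ratio of Pdk4 to Pdk2 was −0.50 with a pseudocount of 5, and that of Me1 to Me2 −0.10 with 0.5. Without 1 library it ran from −0.84 to 0.12 for Pdk1 to Pdk2, −0.96 to 0.011 for Pdk3 to Pdk2 and −0.81 to 1.07 for Me1 to Me2. The cause of these shifts was not tested. The ratio of Ldha to Ldhb has no value, since Ldhb was listed at 0. With the replicate number as a block, 3 enzymes were called toward Reg4+ DCS cells (Ogdh gained) and 9 toward Lgr5+ cells (Pfkp gained), and over all genes 910 and 3534. Deviations of same-numbered libraries correlated at 0.21, and 2 pairs do not establish a pairing. Me1 and Pdk4 fell below the filter and were not tested on the whole columns. With part 2 of each Reg4+ DCS column Me1 had a log2 fold change of −1.48 (limma adjusted p = 0.183).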
